A study of Mus musculus with 6 samples.

Results

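Mammalian cells build ribosomes in separate sets, and the messenger RNAs for the proteins of both sets were compared here in mouse liver. The members are the probe sets that the platform annotation gives exactly 1 symbol beginning with Rpl, Rps, Mrpl or Mrps and a digit, or Rplp0, Rplp1, Rplp2 or Rpsa, without the Rps6k kinases and without pseudogenes. By this rule 48 genes with 100 probe sets coded for cytosolic ribosomal proteins and 74 genes with 127 probe sets for mitochondrial ones. Together they are 122 of 12393 genes and 227 of 22626 probe sets analysed. A further 105 probe sets carry several symbols, a ribosomal one among them, and are no members.

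The BPD group consisted of 3 livers of male KK/H1J mice (mice 23, 28 and 36) given an adenovirus with a form of PFK-2/FBPase-2 that lacks the bisphosphatase activity, an enzyme form that raises fructose 2,6-bisphosphate. The GFP group consisted of 3 livers of the same strain and sex (mice 22, 29 and 31) given an adenovirus with green fluorescent protein at the same stated dose. KK/H1J is an inbred strain that grows obese and diabetic through many genes. All mice were 12 to 14 weeks old, weighed about 35 g, were fed freely, received the virus into the tail vein and were killed 7 days later. Both groups therefore carry a virus, no uninfected liver was compared, and 1 array was run per mouse.

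Cytosolic ribosomes translate nearly all proteins of the cell, and a growing or regenerating liver makes more of them. Mitochondrial ribosomes translate the few proteins encoded by mitochondrial DNA, all of them subunits of the respiratory chain and of ATP synthase, and their own proteins are made from nuclear genes and imported. Many vertebrate messenger RNAs for cytosolic ribosomal proteins begin with a C followed by a run of pyrimidines, through which mTOR signalling adjusts their translation, whereas ETS factors and NRF-1 are known to act on the promoters of many nuclear genes for mitochondrial proteins.

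The promoters show how the classes differ in sequence. RefSeq promoters of build GRCm38.p6, which reach from 250 bases before to 50 bases after the annotated start, were matched for 42 of the 48 cytosolic and 65 of the 74 mitochondrial genes. A run of at least 6 C or T letters that begins with C within 10 bases of the start, read on the gene's strand, was present in 52.4% of cytosolic promoters (22 of 42) and in 13 of 65 mitochondrial ones, beside 19.3% of 17491 promoters of all coding genes. In 8 of the 42 cytosolic promoters and 0 of the 65 mitochondrial ones the annotated start itself was a C followed by at least 4 pyrimidines. The stretches below run 5′ to 3′ over 80 bases, 60 before the start and 20 from it. They show Rpl22l1, whose rise was called under all 3 scalings used below, 4 further cytosolic promoters with a pyrimidine run, and 4 mitochondrial members that fell. Capitals mark a pyrimidine run at the start and any match to CCGGAAG, GCGCATGC, AAGATGGC or TATAAA on either strand.
Rpl22l1, chr3:28805448-28805527, strand +: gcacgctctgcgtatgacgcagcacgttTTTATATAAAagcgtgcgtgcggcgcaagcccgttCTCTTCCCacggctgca
Rps6, chr4:86857348-86857427, strand -: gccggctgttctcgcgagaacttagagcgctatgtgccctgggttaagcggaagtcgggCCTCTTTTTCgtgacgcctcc
Rplp2, chr7:141447591-141447670, strand +: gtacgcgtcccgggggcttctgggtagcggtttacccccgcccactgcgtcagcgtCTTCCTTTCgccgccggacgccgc
Rpl38, chr11:114668520-114668599, strand +: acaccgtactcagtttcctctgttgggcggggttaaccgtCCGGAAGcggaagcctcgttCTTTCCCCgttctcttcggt
Rps10, chr17:27635225-27635304, strand -: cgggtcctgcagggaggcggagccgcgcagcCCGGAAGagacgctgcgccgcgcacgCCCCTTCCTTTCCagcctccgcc
Mrps24, chr11:5707682-5707761, strand -: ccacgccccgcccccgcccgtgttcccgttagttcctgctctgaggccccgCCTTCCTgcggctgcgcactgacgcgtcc
Mrpl2, chr17:46646161-46646240, strand +: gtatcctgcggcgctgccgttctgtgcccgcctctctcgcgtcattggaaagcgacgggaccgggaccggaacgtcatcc
Mrpl33, chr5:31613891-31613970, strand +: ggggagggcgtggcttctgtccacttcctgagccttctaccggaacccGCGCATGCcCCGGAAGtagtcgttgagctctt
Mrpl34, chr8:71464866-71464945, strand +: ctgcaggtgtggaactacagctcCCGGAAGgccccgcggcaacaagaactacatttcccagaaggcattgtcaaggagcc

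In these stretches the cytosolic genes Rps6, Rplp2, Rpl38 and Rps10 have a run of pyrimidines at the start, Rpl22l1 has one beside an upstream TATAAA, Mrps24 has a short one just before the start, and Mrpl33 has GCGCATGC next to CCGGAAG. Overlapping matches on both strands are joined into 1 capital stretch, as around the TATAAA of Rpl22l1. Over whole promoters, CCGGAAG, the core of ETS sites, matched 21 of 42 cytosolic promoters and 35.4% of mitochondrial ones, against 11.9% of all coding ones. GCGCATGC, part of the NRF-1 motif, matched 12.3% of mitochondrial and 2.38% of cytosolic promoters (3.60% of all), and AAGATGGC, part of the YY1 motif, 16.9% and 7.14% (3.22% of all). TATAAA matched 11.9% of cytosolic and 6.15% of mitochondrial promoters (13.3% of all), and GGGCGG 54.8% and 52.3% (46.3% of all). These matches describe letters in a window and not bound sites.

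On the arrays the classes moved apart, by an amount small for each gene. In BPD livers 23, 28 and 36 the median deposited signal of the measured cytosolic probe sets was 6651, 6306 and 5606, against 4993, 5114 and 5155 in GFP livers 22, 29 and 31. Each BPD liver exceeded each GFP liver. The same held for the median signal of all probe sets analysed, which was 174, 197 and 177 in BPD livers and 135, 157 and 143 in GFP livers. Relative to the median of all tested probe sets, the cytosolic log2 median was 3.65 to 3.88 in BPD and 3.64 to 3.69 in GFP livers, with overlap. The median of the mitochondrial class was 670, 614 and 706 in BPD livers and 723, 696 and 711 in GFP livers, and the groups overlapped. The cytosolic probe sets together made up 3.23%, 3.06% and 2.85% of all signal in BPD livers, against 2.45%, 2.55% and 2.63% in GFP livers. The mitochondrial ones made up 0.530% to 0.568% in BPD livers and 0.517% to 0.543% in GFP livers. In whole liver a change in the mix of cells and a change in RNA per cell cannot be told apart.

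A difference between classes within an array is free of that array's scaling factor. On the log2 scale the cytosolic median lay 3.28, 3.33 and 2.96 above the mitochondrial one in BPD livers 23, 28 and 36, and 2.76, 2.85 and 2.83 above it in GFP livers 22, 29 and 31. Over the 3 livers of a group (± SD) the gap averaged 3.19 ± 0.20 in BPD livers, against 2.81 ± 0.05 in GFP livers, without overlap. BPD liver 36 came closest to the GFP livers, and its markers of some other cell types were lower than in the other BPD livers. Relative to the median of all probe sets, the median log2 level of neutrophil markers was 1.83, 1.90 and -0.33 in BPD livers 23, 28 and 36, that of stellate cell and matrix markers 2.14, 2.14 and -0.08, and that of macrophage markers 2.79, 2.70 and 1.77. Lymphocyte, endothelial and bile duct markers were also lowest in BPD liver 36 among the BPD livers. Others were highest there, with erythroid markers at 1.08, 1.13 and 1.28 and hepatocyte markers at 4.44, 4.21 and 4.53. Genes of dividing cells were too, at 0.46, 0.70 and 0.74. The part of these markers in the gap was not tested. With quantile normalization, which forces the same distribution of values on every array, the gap averaged 3.36 ± 0.26 in BPD livers, against 2.65 ± 0.07 in GFP livers. No test was made on these medians because the members were a chosen list.

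**Figure D1:**
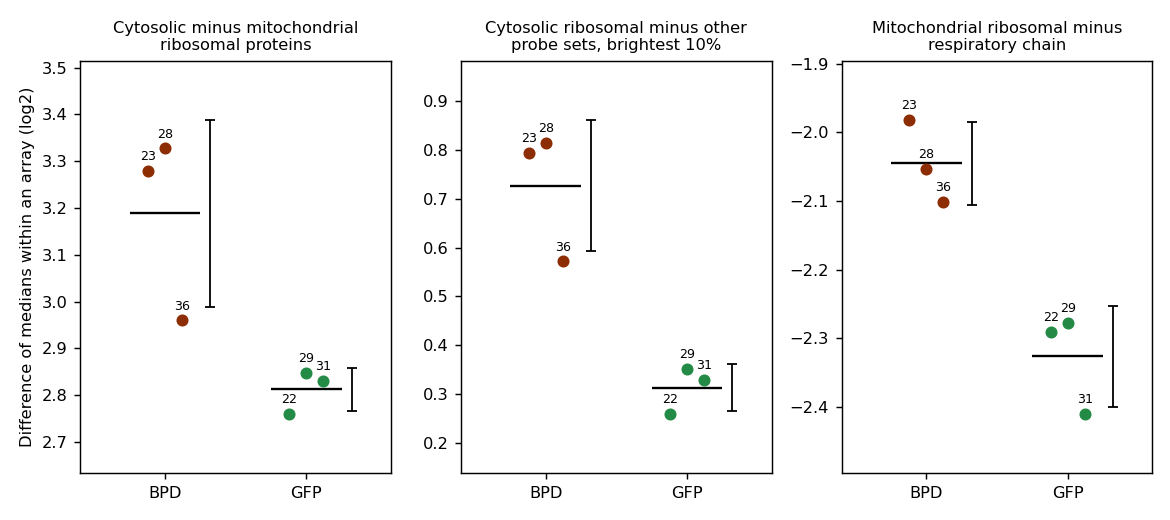
Differences between median log2 levels within each array, 1 point per liver with its mouse number, BPD left of GFP, with horizontal lines at the mean and bars for the SD (n = 3 each). The cytosolic minus mitochondrial gap is 2.96 to 3.33 in BPD and 2.76 to 2.85 in GFP livers, the gap between cytosolic and other probe sets of the brightest 10% is 0.57 to 0.82 in BPD and 0.26 to 0.35 in GFP livers, and the mitochondrial ribosomal median lies 1.98 to 2.10 below the respiratory chain in BPD and 2.28 to 2.41 below it in GFP livers.

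Of the members, 82 of 100 cytosolic and 108 of 127 mitochondrial probe sets passed the filter on low signals (a mean level above the 40th percentile over all 6 arrays). These covered 45 of 48 cytosolic genes, with Rpl14, Rpl39l and Rpl3l left out as too dim, and all 74 mitochondrial genes. Probe sets were compared with limma after each array had been centred on its median, and called at a Benjamini-Hochberg adjusted p under 0.05 over 13575 probe sets. Of 82 cytosolic probe sets 2 rose and 4 fell in BPD livers, while 8.29% of all probe sets rose and 20.3% fell. Of 108 mitochondrial probe sets 0 rose and 24 fell, a share of 22.2% that is near the background of 20.3%. At an unadjusted p under 0.05, 4 cytosolic probe sets were higher and 11 lower, and 0 mitochondrial ones were higher and 48 lower, beside 11.9% higher and 30% lower over all probe sets.

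The median log2 difference, BPD minus GFP, was -0.13 for the cytosolic class (quartiles -0.26 and 0.07), -0.36 for the mitochondrial class (-0.53 and -0.22) and -0.21 for all probe sets tested. The cytosolic class thus lay 0.08 above and the mitochondrial class 0.16 below the median of all. In the mitochondrial class 96 of 108 probe sets had a negative difference, and in 53 of them all BPD livers lay below all GFP livers, while in 0 all lay above. Over all probe sets 34% lay below and 12.7% above in this way. In the cytosolic class 19 of 82 lay below and 8 above. These counts moved with the scaling. In the signals as deposited, 21 mitochondrial probe sets lay below and 13 above in this way, and 2 cytosolic ones lay below and 30 above, beside 16.5% below and 27.1% above over all probe sets.

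**Figure D2:**
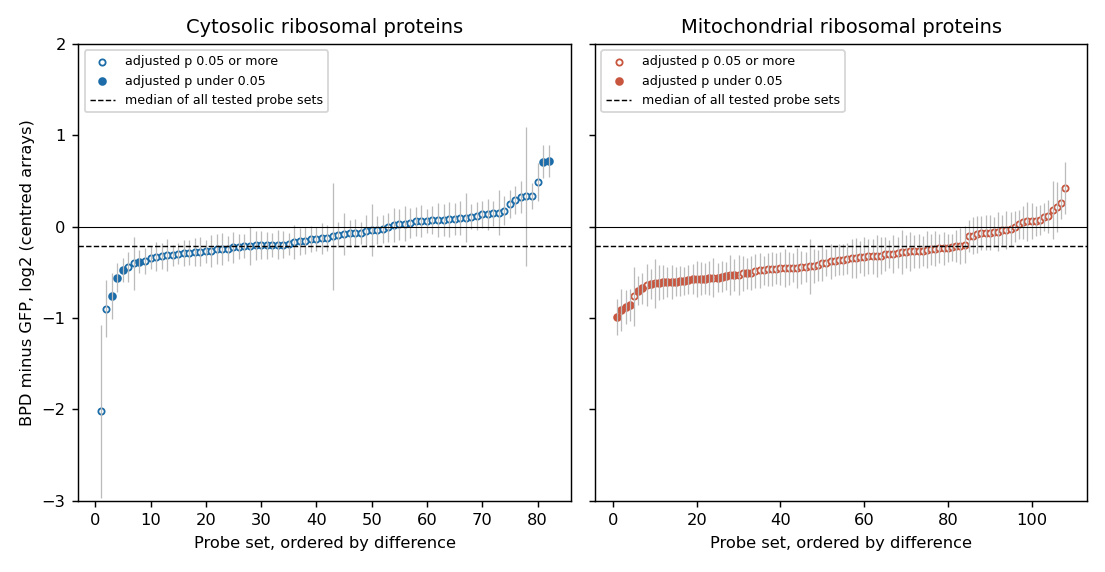
Log2 differences, BPD minus GFP, of the 82 cytosolic and 108 mitochondrial ribosomal protein probe sets tested, ordered by size, with bars for the SE of the limma fit (3 BPD and 3 GFP arrays). Filled points passed the threshold (2 higher and 4 lower cytosolic, 0 higher and 24 lower mitochondrial), and the dashed line is the median of all probe sets tested, -0.21.

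The direction of the cytosolic calls depended on how the arrays were scaled, and the order of the classes did not. With the scaling as deposited 14 cytosolic probe sets rose and 0 fell, where 16.7% of all probe sets rose and 9.68% fell, and 1 mitochondrial probe set rose and 3 fell. With quantile normalization 39 of 82 cytosolic probe sets rose (47.6%) and 0 fell, where 12.4% of all rose and 12% fell, and 0 of 108 mitochondrial ones rose and 6 fell. The cytosolic median was 0.18 under the deposited scaling and 0.35 with quantile normalization, and the mitochondrial median was -0.06 and -0.19, beside 0.10 and -0.06 for all probe sets. The cytosolic median exceeded the mitochondrial one by 0.24 (1.18-fold) with both centring and the deposited scaling and by 0.54 (1.45-fold) with quantile normalization. Centring shifts the differences of all probe sets equally, so of these scalings only quantile normalization could change the gap.

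**Figure D3:**
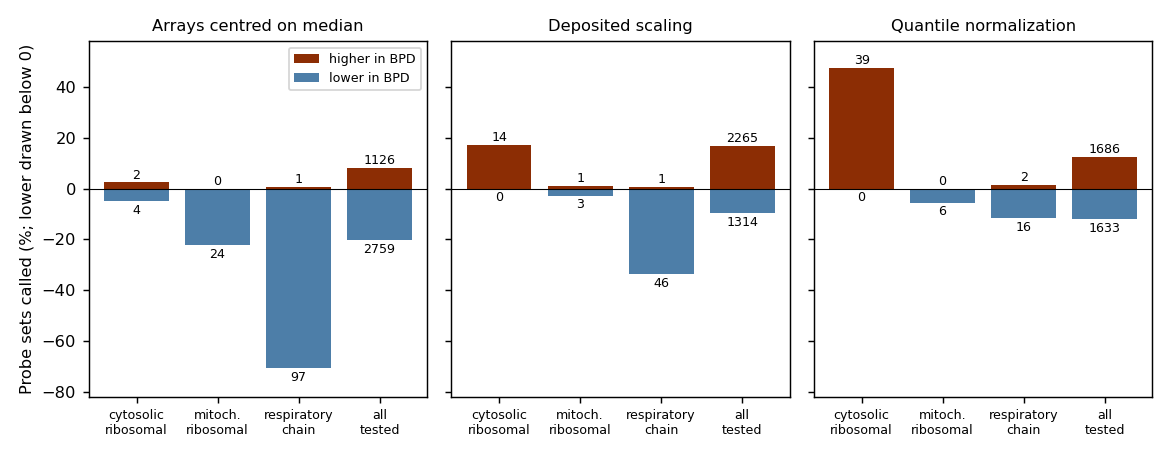
Share of probe sets called higher (above 0) and lower (below 0) in BPD than in GFP livers under 3 ways of scaling the arrays, with counts printed at the bars, for 82 cytosolic and 108 mitochondrial ribosomal probe sets, 137 respiratory chain probe sets and all 13575 tested. Cytosolic calls are 2 higher and 4 lower after centring and 39 higher and 0 lower after quantile normalization.

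Some calls held their direction under all 3 scalings, counted here without the share over all probe sets beside them. In the cytosolic class they were 2 rises, Rpl22l1 and 1 probe set of Rpl13a, and in the mitochondrial class 3 falls, both probe sets of Mrps24 and that of Mrpl2. Rpl13a was singled out after its values were seen.

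Most cytosolic ribosomal messenger RNAs are among the brightest of the liver, and there they were called lower less often than the rest, a difference that was not tested. Of the 82 probe sets 61 lay among the brightest 10% of those tested. The 1296 other probe sets of this band had a median difference of -0.54, with 2.62% higher and 52.3% lower in BPD livers. The 61 cytosolic probe sets had a median of -0.13, with 0 higher and 2 lower (3.28%). With quantile normalization 36 of the 61 were higher (59.0%), against 19.1% of the others. Within arrays, the cytosolic median of this band exceeded that of the others by 0.79, 0.82 and 0.57 in BPD livers 23, 28 and 36, and by 0.26, 0.35 and 0.33 in GFP livers 22, 29 and 31. The groups did not overlap, and the shift between them of 0.41 was 0.43 with quantile normalization.

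The mitochondrial class is spread over the middle and upper levels, with 1 probe set in the brightest band. In the next of 10 equal bands of brightness, 15 mitochondrial probe sets had a median of -0.30 beside -0.36 for 1337 others. In the band below it, 29 had a median of -0.38 beside -0.26 for 1328 others, and 24.1% of the 29 and 25.4% of the others fell. In the band under that, 20 had a median of -0.45 beside -0.21 for 1332 others. Across the members of a class, which share the 6 arrays, level and difference had a Pearson's r of -0.05 and a Spearman's rho of -0.32 over 82 cytosolic probe sets, and -0.03 and -0.04 over 108 mitochondrial ones.

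**Figure D4:**
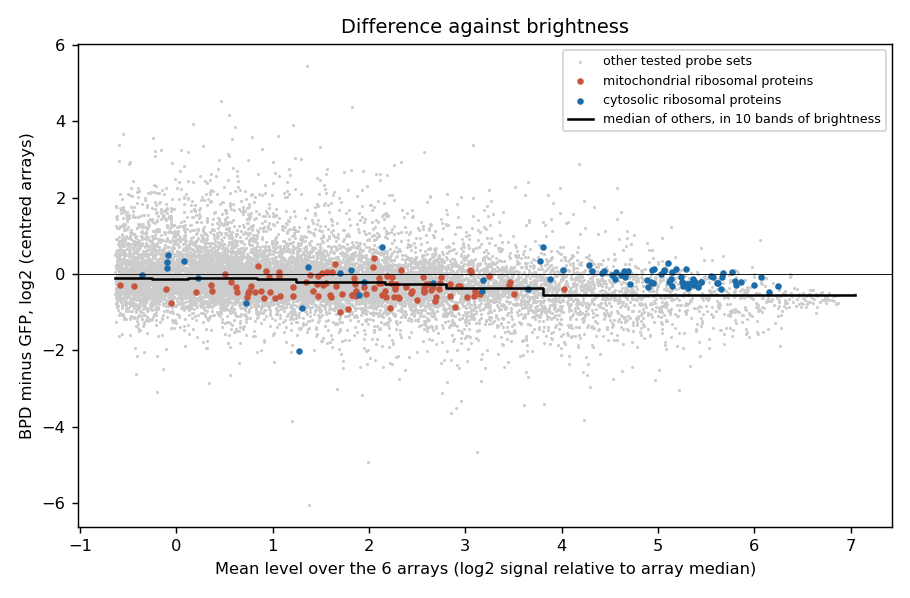
Log2 difference, BPD minus GFP, against the mean level over the 6 arrays, 1 point per probe set, with cytosolic ribosomal proteins in blue, mitochondrial ones in red, other tested probe sets in grey and the median of the others in 10 equal bands of brightness as a black line. At the bright end the line falls to -0.54, and the 61 cytosolic probe sets there lie around -0.13.

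Among single cytosolic proteins, Rpl22l1, a large-subunit paralog of Rpl22, rose. Its signal was 4120, 3677 and 2908 in BPD livers 23, 28 and 36, against 1703, 2029 and 1528 in GFP livers 22, 29 and 31. Every BPD liver exceeded every GFP liver. The log2 difference was 0.71 ± 0.18 (SE, limma adjusted p = 0.0168), with 1.01 under the deposited scaling and 1.13 after quantile normalization. The call was lost when BPD mouse 23 (adjusted p = 0.056), BPD mouse 28 (0.051) or GFP mouse 31 (0.060) was left out.

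Rpl22 itself, which Rpl22l1 can replace in the ribosome, did not follow. Its brighter probe set read 1146, 1029 and 1269 in BPD livers and 1026, 1248 and 997 in GFP livers. The groups overlapped, with a log2 difference of -0.23 ± 0.17 (limma adjusted p = 0.34). Its dimmer probe set read 580, 605 and 596 in BPD livers against 751, 678 and 713 in GFP livers, and fell by 0.56 (adjusted p = 0.0272). That call was not made with the deposited scaling (adjusted p = 0.164) or with quantile normalization (0.053).

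The log2 ratio of Rpl22l1 to Rpl22 is free of an array's scaling factor, though quantile normalization can change it. Without quantile normalization the ratio was 1.83, 1.82 and 1.19 in BPD livers and 0.72, 0.69 and 0.61 in GFP livers. The difference was 0.94, without overlap. An exact 2-sided permutation test gave p = 0.1, the smallest value that 3 against 3 arrays allow, and 0.35 after adjustment over 7 paralog pairs. For Mrps18a over Mrps18c the ratio was -0.44, -0.44 and -0.67 in BPD livers and 0.08, -0.37 and 0.32 in GFP livers (exact permutation p = 0.1, adjusted 0.35). For Rps27l over Rps27 it averaged 4.49 ± 0.53 in BPD and 3.80 ± 0.33 in GFP livers (exact permutation p = 0.2, adjusted 0.467). The Rps27l probe set was brighter than the median of the cytosolic class and carries the suffix for cross-matching (_x_at). A match to Rps27 or other transcripts was not tested. The ratio is therefore one of probe set signals and need not give the relative amounts of these paralogs. The pairs Rpl7l1 and Rpl7, Rps4l and Rps4x, Mrps18a and Mrps18b, and Mrps18b and Mrps18c had p from 0.3 to 1.

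Rpl13a, a large-subunit protein that in human monocytes also silences inflammatory messages, has 4 measured probe sets. One of them read 1133, 1012 and 1175 in BPD livers against 554, 514 and 542 in GFP livers. The groups lay far apart, with a log2 difference of 0.72 ± 0.17 (limma adjusted p = 0.0136). The brightest of the 4 read 12888, 10201 and 10094 in BPD livers against 8858, 8379 and 8453 in GFP livers, with a log2 difference of 0.06 ± 0.16 after centring (adjusted p = 0.804) and 0.65 with quantile normalization (adjusted p = 0.00409). The probe sets of this gene thus gave unequal sizes, and 1 of 4 was called after centring.

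**Figure D5:**
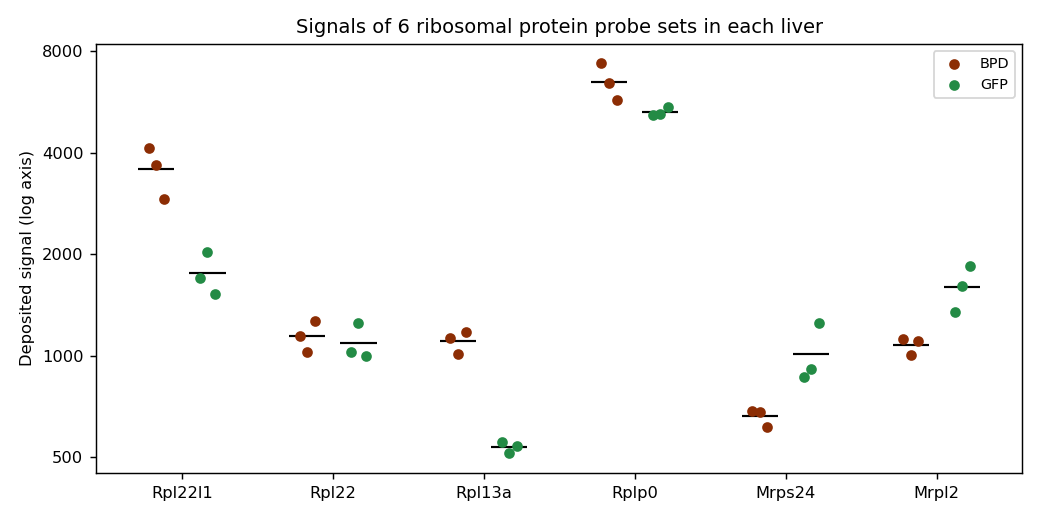
Deposited signals (log axis) of Rpl22l1, the brighter probe set of Rpl22, the called probe set of Rpl13a, Rplp0, the brighter probe set of Mrps24, and Mrpl2, 1 point per liver with BPD left of GFP and lines at the means. The groups are apart for Rpl22l1 (2908 to 4120 in BPD, 1528 to 2029 in GFP) and overlap for Rpl22.

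Proteins of the ribosomal stalk and other well studied members had no call after centring. Rplp0, the base of the stalk that recruits elongation factors, read 7349, 6433 and 5710 in BPD livers and 5166, 5214 and 5444 in GFP livers. Its log2 difference was -0.01 ± 0.15 after centring (limma adjusted p = 0.972), 0.29 under the deposited scaling (0.107) and 0.50 after quantile normalization (0.0171). Rplp2, its partner in the stalk, read 8958, 8066 and 7488 in BPD livers and 5991, 5818 and 6252 in GFP livers. It was called higher under the deposited scaling (0.44, limma adjusted p = 0.0196) and with quantile normalization (0.69, 0.00305), but not after centring (0.14, 0.511). Deposited signals of both were higher in every BPD than in every GFP liver.

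Of the small subunit, Rpsa, Rps3 and Rps6 had differences above the upper quartile of the cytosolic class (0.07). Rpsa, which sits near the exit of messenger RNA and is also known as the laminin receptor, read 8659, 6456 and 5713 in BPD livers against 5393, 5029 and 5158 in GFP livers (0.09 ± 0.19 after centring, limma adjusted p = 0.729). Rps3, at the entry of messenger RNA, read 7052, 6298 and 5674 in BPD livers against 4875, 4900 and 4408 in GFP livers (0.12 ± 0.15, adjusted p = 0.582). Rps6, the substrate of S6 kinases, read 509, 547 and 531 in BPD livers against 380, 346 and 404 in GFP livers (0.17 ± 0.16, adjusted p = 0.431). Deposited signals of these 3 genes were higher in each BPD than in each GFP liver. Under that scaling Rps3 was called higher (adjusted p = 0.0335) and so was Rps6 (0.0325). Rpl11, which binds Mdm2 when ribosome assembly is disturbed, had a log2 difference of -0.22 ± 0.14 (adjusted p = 0.252).

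BPD livers also differed among themselves. In 52 of the 82 cytosolic probe sets the deposited signal was highest in mouse 23 of the 3 BPD mice, and in 52 it was lowest in mouse 36. Among GFP livers mouse 31 was highest in 45 and mouse 22 lowest in 43. The order depended on the scaling. After centring, mouse 23 was the highest BPD liver in 60, while mouse 28 was the lowest in 47 and mouse 36 in 30. Among GFP livers mouse 31 was then highest in 48 and mouse 29 lowest in 53. In the mitochondrial class mouse 28 was the lowest BPD liver in 48 of 108 probe sets, and after centring in 80. Shares over all probe sets were not set beside these counts.

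The cytosolic probe sets that fell after centring were few and kept their call under neither other scaling. Rps2, a small-subunit protein at the entry of messenger RNA, read 12475, 11793 and 11557 in BPD livers against 13484, 13495 and 13370 in GFP livers. All BPD livers were lower, with a log2 difference of -0.47 ± 0.13 (limma adjusted p = 0.0222) that turned to 0.18 with quantile normalization (0.105). Rps28 (-0.38 ± 0.13, limma adjusted p = 0.0474) likewise turned to 0.22, and its deposited signals overlapped between the groups. Rpl39, which lines the exit tunnel of the ribosome, had low signals of 147, 314 and 280 in BPD and 279, 328 and 389 in GFP livers, and fell by 0.76 ± 0.25 (limma adjusted p = 0.0469), with overlapping deposited signals. Among the brightest genes besides Rps2, Rps29 had -0.31 ± 0.11 (adjusted p = 0.0691) and Rpl41 -0.07 ± 0.12 (adjusted p = 0.694) after centring, and 0.35 and 0.56 with quantile normalization.

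Of the mitochondrial proteins, Mrps24 and Mrpl2 fell most firmly. Mrps24, of the small subunit, read 688, 682 and 617 in BPD livers against 863, 917 and 1252 in GFP livers with its brighter probe set. The second probe set read 500, 371 and 461 in BPD livers against 773, 648 and 741 in GFP livers. Each BPD liver lay below each GFP liver on both. The log2 differences were -0.88 ± 0.19 (limma adjusted p = 0.00834) and -0.99 ± 0.20 (0.00704), and both were also called under the deposited scaling and after quantile normalization. Both probe sets carry a suffix for shared probes (_s_at), as does the called probe set of Mrpl38 below. The 6 mitochondrial probe sets with that suffix had a median of -0.73, beside -0.36 for the class, and 4 fell. The setting without _s_at and _x_at probe sets left Mrps24 out, and a match to other transcripts was not tested.

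Mrpl2 belongs to the core around the peptidyl transferase centre of the large subunit. It read 1119, 1009 and 1108 in BPD livers against 1352, 1610 and 1840 in GFP livers. The groups were apart, with a log2 difference of -0.85 ± 0.17 (limma adjusted p = 0.00694), and its call, like that of the brighter Mrps24 probe set, was kept in all alternatives that tested it.

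Other large-subunit proteins fell less evenly. Mrpl38 read 604, 409 and 453 in BPD livers against 719, 633 and 909 in GFP livers (-0.91 ± 0.23, limma adjusted p = 0.017), while its dim second probe set had -0.28 ± 0.24 (adjusted p = 0.403). Mrpl14 read 853, 1043 and 1080 in BPD livers against 1272, 1358 and 1291 in GFP livers (-0.70 ± 0.16, adjusted p = 0.0104). Mrpl23, which lies near the exit of the tunnel, read 893, 831 and 894 in BPD livers against 1008, 1107 and 1311 in GFP livers (-0.68 ± 0.17, adjusted p = 0.0174). All BPD livers were below all GFP livers for these 3 genes, apart from the second probe set of Mrpl38. Mrpl33 and Mrpl34, shown above for their promoters, fell by 0.60 each (adjusted p = 0.0407 and 0.0213), with Mrpl33 at 295, 226 and 235 in BPD livers against 302, 290 and 348 in GFP livers.

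Some members of the class had no call. Mrpl12, which also binds mitochondrial RNA polymerase, read 2104, 1735 and 2280 in BPD livers and 1746, 1746 and 2243 in GFP livers, with full overlap (-0.21 ± 0.20, limma adjusted p = 0.451). The brightest gene, Mrpl39, had -0.40 ± 0.20 (adjusted p = 0.15) and Mrpl27 -0.53 ± 0.22 (adjusted p = 0.101). Mrps36, now known mainly as a part of the oxoglutarate dehydrogenase complex, had -0.21 ± 0.18 (adjusted p = 0.388). Of the 3 Mrps18 paralogs, Mrps18a and Mrps18b each fell by 0.61 ± 0.19 (adjusted p = 0.0407 and 0.0375), and Mrps18c had -0.08 ± 0.21 (adjusted p = 0.78). Mrpl3 had positive differences on both probe sets, 0.26 ± 0.18 and 0.22 ± 0.27 after centring, and 1 of them was called higher with the deposited scaling (0.56, adjusted p = 0.0262).

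Subunits were assigned by the letter l or s of the symbol alone, which need not match the place of a protein in the ribosome. On that basis 13 of 72 mitochondrial large-subunit probe sets (18.1%) and 11 of 36 small-subunit ones (30.6%) fell, with medians of -0.33 and -0.45. Over all probe sets 20.3% fell. Mrps36 is counted with the small subunit. Of the cytosolic large subunit 2 of 40 rose and 2 fell (median -0.09), and of the small subunit 0 of 42 rose and 2 fell (median -0.18). No difference between subunits was tested. Several probe sets were measured for 19 cytosolic and 24 mitochondrial genes, and in 0 of them were probe sets called in opposite directions. Taking the brightest probe set of each gene, 1 of 45 cytosolic genes rose and 3 fell, and 0 of 74 mitochondrial genes rose and 23 fell. Probe sets of Rps10 disagreed most, at -2.02 ± 0.94 for a probe set with signals of 1120, 31.5 and 231 in BPD livers and 636, 524 and 1348 in GFP livers, and between -0.24 and 0.08 for its 4 bright ones. Close copies and processed pseudogenes can share probes with cytosolic members, 38 of whose 82 probe sets carry the suffix for cross-matching (_x_at). Those 38 had a median of -0.09.

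Cytosolic genes with and without the pyrimidine run differed little. The 20 measured genes with a run had a median of -0.16 (quartiles -0.29 and 0.09), and the 19 without one a median of -0.13 (-0.22 and 0.04). In the mitochondrial class the medians were -0.23 for 13 genes with a run and -0.45 for 52 without one. None of these splits was tested.

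The count of mitochondrial falls changed with the mouse left out. It was 4 without BPD mouse 28, 5 without GFP mouse 22 and 6 without GFP mouse 31. Without BPD mouse 23 it was 16, without BPD mouse 36 it was 23 and without GFP mouse 29 it was 19. These fits held fewer arrays, and the share called over all probe sets was not set beside them. With the ratio of 3′ to 5′ signal of Gapdh as a covariate the count was 8 of 108, again without that share. That log2 ratio, a sign of RNA integrity, was -0.21, -0.44 and -0.42 in BPD livers and -0.35, -0.33 and -0.15 in GFP livers, and its part in the results was not tested beyond that fit.

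Nuclear genes of the respiratory chain and ATP synthase, which mitochondrial ribosomes complement with their own products, had a lower median difference than the mitochondrial ribosomal genes after centring and with the deposited scaling, but not after quantile normalization. Of 137 measured probe sets 1 rose and 97 fell (70.8%), with a median of -0.63, beside 8.29% and 20.3% of all probe sets. With the deposited scaling 46 fell (33.6%, background 9.68%), and after quantile normalization 16 (11.7%, near the background of 12%). These probe sets are bright, with a median centred level of 4.17 beside 1.96 for the mitochondrial ribosomal class. In the brightest 10%, probe sets other than ribosomal ones had a median difference of -0.54 after centring, and 52.3% fell. The part of brightness in the difference between these classes was not tested. The median after quantile normalization was -0.17 for the respiratory chain and -0.19 for the mitochondrial ribosomal class. Within arrays the mitochondrial ribosomal median lay below the respiratory chain median by 1.98, 2.05 and 2.10 in BPD livers 23, 28 and 36, and by 2.29, 2.28 and 2.41 in GFP livers 22, 29 and 31. The groups did not overlap, but with quantile normalization they did, the median lying 2.19 ± 0.10 below (SD, n = 3) in BPD livers and 2.19 ± 0.06 below in GFP livers.

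Other genes of the translation machinery were taken from textbook lists, and each gene was represented by its brightest probe set in the same limma fit. Of 66 measured genes of nucleolar ribosome assembly 3 rose and 5 fell (median -0.17), beside 8.29% and 20.3% of all probe sets. The balance turned with the scaling, and 8 rose and 2 fell both under the deposited scaling and after quantile normalization. Over all probe sets 16.7% rose and 9.68% fell under the deposited scaling, and 12.4% rose and 12% fell after quantile normalization. Those that rose after centring were Nop58 (0.90 ± 0.17, adjusted p = 0.00532) and Nop56 (0.60, adjusted p = 0.0393), both core proteins of the box C/D particles that methylate ribosomal RNA, and Nolc1 (0.59, adjusted p = 0.028), a nucleolar chaperone of such particles. Those that fell after centring included Rcl1 (-0.97, adjusted p = 0.00445) and Nop10 (-0.83, adjusted p = 0.00445), a protein of the box H/ACA particles. Of 15 genes of RNA polymerase I and its factors 0 were called after centring, and at the smallest p Polr2h had -0.43 (adjusted p = 0.0643). Of 12 genes of ribosome quality control 0 were called after centring. Under the deposited scaling 1 gene of each of these 2 lists rose, and after quantile normalization 1 of ribosome quality control.

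Of 35 cytosolic initiation factors 0 rose and 4 fell after centring, while 3 rose and 1 fell under the deposited scaling and 7 rose and 1 fell after quantile normalization. Over all probe sets 20.3% fell after centring, 16.7% rose under the deposited scaling and 12.4% rose after quantile normalization. The falls after centring were led by Eif4a2, a helicase of the cap-binding complex (-0.97, limma adjusted p = 0.00189). Of 11 elongation and termination factors 0 rose and 4 fell after centring, among them Eef1a1 (-0.48, adjusted p = 0.0141) and Eef2 (-0.46, adjusted p = 0.0387), whose messenger RNAs also begin with a pyrimidine run. Under each of the other scalings 0 of these 11 fell and 2 rose. Fau, which codes for the small-subunit protein eS30 under another name, had -0.12 (adjusted p = 0.535).

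After centring the mitochondrial lists held falls and 0 rises, at shares to be read against the 20.3% of all probe sets that fell. The falls were fewer under the other scalings, where 9.68% (deposited) and 12% (quantile) of all probe sets fell. For the list of translation factors the falls were 1 under the deposited scaling and 2 after quantile normalization. For the synthetases they were 0 and 2, and for assembly and transcription 3 under each, with 1 rise there under the deposited scaling. Of 10 genes listed with the translation factors 4 fell. They were led by Letm1 (-1.10, limma adjusted p = 0.00295), an inner-membrane protein linked to mitochondrial ribosomes and no translation factor itself. Mrrf, the recycling factor (-0.64, adjusted p = 0.0217), and Tufm, the elongation factor Tu (-1.93, adjusted p = 0.0445), were also among them. Tufm read 92.0, 613 and 868 in BPD livers against 1396, 1043 and 1182 in GFP livers, so that BPD liver 23 set much of its size, and it was called under neither of the other scalings (adjusted p = 0.105 and 0.0965). Of 11 aminoacyl-tRNA synthetases and related enzymes 4 fell, led by Hars2 (-0.69, adjusted p = 0.0113). Of 26 genes of mitoribosome assembly and mitochondrial transcription 6 fell, led by Nsun4, which methylates mitochondrial ribosomal RNA (-0.99, adjusted p = 0.00254), and C1qbp (-0.86, adjusted p = 0.00379). Of 5 mitochondrial ribosomal proteins with other names 1 fell, Gadd45gip1 (-0.67, adjusted p = 0.0148), while Dap3 had -0.28 (adjusted p = 0.242). Of 13 genes that signal growth to ribosomes 1 rose after centring, Rps6ka3, the kinase RSK2 (0.83, adjusted p = 0.0126), and 2 fell, Tsc1, a brake on mTOR complex 1 (-0.95, adjusted p = 0.0164), and Mxi1, which opposes Myc (-0.62, adjusted p = 0.026). Myc had 0.70 (adjusted p = 0.0952).

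RNA levels of cell type markers differed between the groups. All 16 hepatocyte markers on the array, Alb, Ttr, Apoa1 and Cps1 among them, passed the filter in these livers. Of the 16, 0 rose and 14 fell after centring, 9 fell under the deposited scaling and 4 after quantile normalization, with a summed signal of 157742 to 179601 in BPD and 233165 to 243901 in GFP livers. After centring, 12 of 17 macrophage markers rose and 0 fell (32255 to 62283 in BPD, 7326 to 26745 in GFP), and so did 5 of 6 neutrophil markers (9440 to 18993 in BPD, 1188 to 3671 in GFP), 3 of 7 lymphocyte markers (2369 to 3863 in BPD, 606 to 1652 in GFP) and 6 of 12 markers of stellate cells and matrix (11865 to 28932 in BPD, 5923 to 6837 in GFP). Under the deposited scaling 14 macrophage, 6 neutrophil, 5 lymphocyte and 8 stellate cell and matrix markers rose, after quantile normalization 15, 5, 3 and 6 did, and 0 fell. The lymphocyte markers Cd3d, Cd3e, Cd4, Cd8a, Cd79a and Cd79b were too dim to test, as were Krt7, Krt19, Epcam and Sox9 of bile duct cells, while the other 2 bile duct markers rose (1492 to 1933 in BPD, 96.7 to 198 in GFP). Of 9 endothelial markers 1 rose and 1 fell (3327 to 4881 in BPD, 2723 to 4578 in GFP), and of 4 erythroid markers 3 rose and 1 fell (3873 to 6032 in BPD, 3840 to 4803 in GFP). Genes of dividing cells rose in 21 of 22 cases (18545 to 22001 in BPD, 3335 to 4721 in GFP) and p53 targets in 10 of 14, with 1 fall (17568 to 19554 in BPD, 7175 to 8031 in GFP). The part of these differences in the ribosomal results was not tested.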

How the data were processed

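RNA of 6 livers, 3 BPD and 3 GFP, was measured on 1-colour arrays with biotin-labelled RNA. The deposited table holds 1 linear signal intensity per probe set and array, which the authors made with MAS5, per the submitters' processing notes. Their version of MAS5 is not given in the sources used here. Averaged over the 6 arrays, the mean without the lowest and highest 2% of values was 499.9. All 6 columns were used and 0 were left over.

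Values were taken as log2(signal + 16.3), with 10% of the overall median (163) as the constant, and fold changes on this scale understate those of dim probe sets. Array medians differed 1.46-fold between the highest and lowest array, and each array was centred on its median. Of 22690 probe sets 64 controls were left out, and 13575 with a mean level above the 40th percentile were tested with limma 3.58.1 in R 4.3.3 (lmFit, eBayes with an intensity trend, 2-sided, 4 residual degrees of freedom, Benjamini-Hochberg adjustment, threshold 0.05). Errors of log2 differences are SE of that fit. P-values measure the spread between these mice, 1 per array, and the number of arrays limits the precision. The fit was tested on simulated data.

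Genes named from the members are, in each class, the 5 largest rises and falls past the threshold without overlap between groups, the 3 brightest genes, members of paralog pairs and a fixed set of well studied members. From the 21 gene lists up to 4 members with the smallest p were eligible. Other members were chosen after their values were seen. Members and lists were chosen with earlier results of these data known. A total of 14 alternative settings were run. Promoter sequences are RefSeq's, build GRCm38.p6, and give the letters of the annotated start only.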

Additional observations from a re-analysis of the deposited data

How the results depend on the processing

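No paired analysis was possible because the mouse numbers are not shared between the groups. The scaling of the arrays decided the cytosolic counts, and 3 mice per group limit what can be called. With the deposited scaling 14 cytosolic probe sets were higher and 0 lower (median 0.18), and 1 mitochondrial one was higher and 3 lower (median -0.061). With quantile normalization 39 cytosolic ones were higher and 0 lower (median 0.35), 6 mitochondrial ones were lower (median -0.19), and the gap between the classes was 0.54 instead of 0.24. Differences of Rps2 (0.18), Rps28 (0.22), Rps29 (0.35), Rpl41 (0.56), Rpl7 (0.46), Rplp0 (0.50) and Rps4x (0.49) were positive there and negative after centring; the cause was not tested. The 4 cytosolic falls of 82 probe sets became 2 of 82 with a constant of 50% of the median and 2 of 100 without the filter. Without _s_at and _x_at probe sets they were 2 of 42. When the Gapdh ratio entered the fit they were 1 of 82, beside 8 mitochondrial falls of 108. Shares over all probe sets were not set beside these counts. Over the brightest probe set of each gene 1 cytosolic gene was higher. Leaving out each mouse in turn gave 1 to 2 cytosolic rises, 0 to 5 cytosolic falls, 4 to 23 mitochondrial falls, class medians of -0.19 to -0.07 (cytosolic) and -0.45 to -0.31 (mitochondrial), and a gap of 0.22 to 0.34. Fewer samples were fitted there, again without the share over all probe sets. The distance of the cytosolic class from the other probe sets of the brightest 10%, a measure and its alternatives chosen after seeing the data, was 0.41 and ranged between 0.35 and 0.50 over 14 alternatives. The deposited scaling, 1 of these alternatives, could not change this distance.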
